A study of Mus musculus with 16 samples.

Results

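The genes described here are 33 genes of glycolysis and of the response to low oxygen, measured in mammary tumours of mice that carry a STAT5 transgene and in normal mammary gland. They are a chosen list of glucose carriers, glycolytic enzymes, lactate carriers, regulators of flux, oxygen sensors and hypoxia targets. A gene was read from a probe set that the annotation gives to it alone, and from the one with the highest mean signal where it had several. This gave a value for 30 of the 33 genes, among 12394 genes with such a probe set on the array. Gpi1, Eno1 and Pfkfb4 had no such probe set and were not analysed here. All 30 passed the filter on low signals, a signal above 35.4 on at least 3 arrays, and were tested with 9252 genes in all.

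Total RNA was measured on 16 Affymetrix arrays. 7 arrays held tumours with STAT5ca, a constitutively active form of the transcription factor STAT5, 6 held tumours with STAT5Δ750, a form cut short at its C-terminus, and 3 held normal mammary gland. All tissue was of the FVB/N background. The labels name neither the promoter that drives the transgenes nor the age, parity or stage of the glands, the histology of the tumours, or whether each array is a separate animal, so that p-values measure only the spread between these samples.

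Glycolysis splits glucose into pyruvate in the cytosol, and many of its steps can be run by several isozymes whose genes differ between tissues. When oxygen is low the HIF proteins are no longer hydroxylated by the EGLN enzymes and marked for destruction, and they turn on glucose carriers, glycolytic genes and a set of further targets through short sites in their promoters and enhancers. Mammary epithelium takes up glucose largely through GLUT1 and, in lactation, uses it to make lactose.

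The labelled tissue was checked against markers fixed for it. The summed signal of 9 luminal epithelial markers ran from 803.3 to 29357.5 in STAT5ca tumours and from 16136.7 to 27390.0 in STAT5Δ750 tumours, against 4027.7 to 9892.7 in glands. The tumour STAT5ca_177 stood apart: its signal for Krt8, a luminal keratin, was 25.3, where the other STAT5ca arrays had 3836.1 to 5375.9, and its summed signal of 7 macrophage markers was the highest of all at 27799.3. Its effect is given beside the results that it moved. Degraded RNA gives more signal at the 3' than at the 5' end of a long transcript, and for beta-actin this ratio was 1.76 to 5.38 in STAT5ca tumours and 1.27 to 3.52 in STAT5Δ750 tumours, against 1.07 to 1.25 in glands. The same ratio for Gapdh did not separate them in that way, at 0.791 to 1.71 in STAT5ca tumours and 0.757 to 0.864 in STAT5Δ750 tumours, against 0.841 to 1.03 in glands. The glands also carried far more signal of other tissues. The summed signal of 12 skeletal muscle genes was 147.9 to 8563.7 in STAT5ca tumours and 442.6 to 21066.4 in STAT5Δ750 tumours, against 68386.6 to 81108.9 in glands, and that of 8 adipocyte genes was 1152.9 to 7314.2 and 1207.1 to 7812.9, against 20631.6 to 22420.6 in glands. The plot of marker sums shows these levels by array. In bulk tissue fewer cells of a type and less RNA per cell cannot be told apart.

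**Figure D1:**
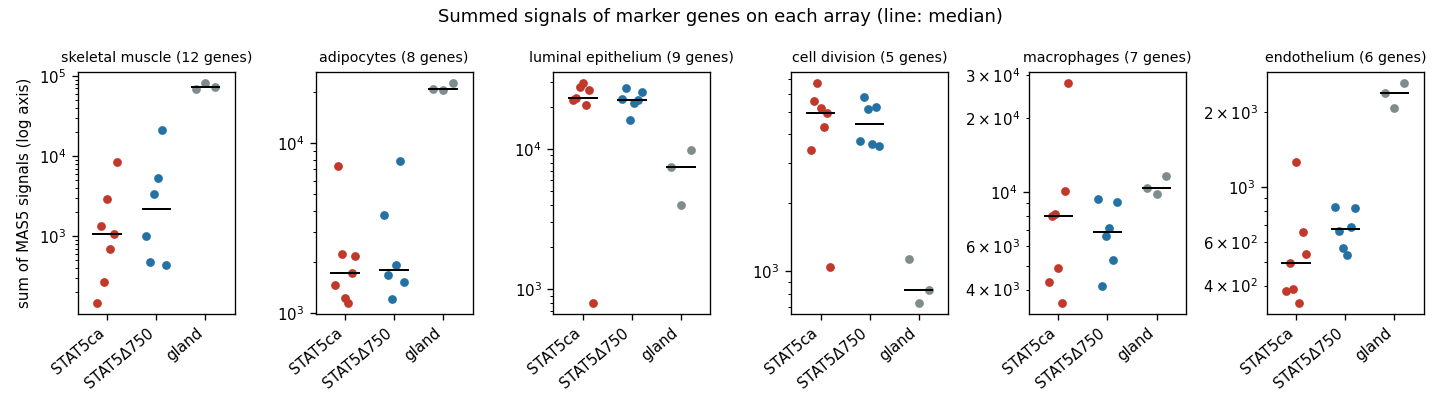
Summed signals of marker genes by array, 1 panel per marker list, on log axes, with bars at the median and STAT5ca tumours, STAT5Δ750 tumours and glands from left to right. Muscle and adipocyte sums are lower on all 13 tumour arrays than on the 3 glands.

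The promoters of the members are shown first for the genes on which the results turn. RefSeq gives starts on mouse genome build GRCm38.p6 for 32 of the 33 genes, and Ndrg1 has no entry. The letters ACGTG or GCGTG, the core letters of the sites that HIF binds, were searched on both strands in the 250 bases before each start. They occurred before 30 of 32 members (93.8%), against 61.6% of 7452 tested genes with a start and 41.5% of 27025 genes in the table. ACGTG was found for 19 members (59.4%), against 25.3% of the tested genes, and GCGTG for 22 (68.8%), against 50.0%. Genes with both are in both counts. A member counted where any of its starts had a match, and some members have several starts. The shares were not adjusted for the number of starts or for base composition. They describe a list chosen to hold hypoxia targets, and not the tumours. CACGTG, the palindrome also known as an E-box, holds ACGTG on both strands. The sequences below end at the base before the start, read 5′ to 3′ on the gene's own strand, and have both motifs, on either strand, in capitals. Slc2a1 at chr4:119108495-119108744 (+), Pfkl at chr10:78009808-78010057 (−) and Pgam1 at chr19:41911621-41911870 (+) are genes that were higher in both kinds of tumour. Egln3 at chr12:54203875-54204124 (−) and Adm at chr7:110627407-110627656 (+) are hypoxia-responsive genes that were called. Ldha at chr7:46845554-46845803 (+) is shown as a gene with many matches that passed in no comparison.
Slc2a1: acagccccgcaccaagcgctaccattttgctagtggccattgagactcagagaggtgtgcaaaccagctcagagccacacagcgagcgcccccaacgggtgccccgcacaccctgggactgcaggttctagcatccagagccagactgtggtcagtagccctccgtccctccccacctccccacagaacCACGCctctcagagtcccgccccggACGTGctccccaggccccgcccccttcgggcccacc
Pfkl: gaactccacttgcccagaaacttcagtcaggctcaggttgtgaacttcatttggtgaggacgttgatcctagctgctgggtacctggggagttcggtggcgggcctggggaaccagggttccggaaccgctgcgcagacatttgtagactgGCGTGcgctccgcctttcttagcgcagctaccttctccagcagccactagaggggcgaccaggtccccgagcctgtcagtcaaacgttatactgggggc
Pgam1: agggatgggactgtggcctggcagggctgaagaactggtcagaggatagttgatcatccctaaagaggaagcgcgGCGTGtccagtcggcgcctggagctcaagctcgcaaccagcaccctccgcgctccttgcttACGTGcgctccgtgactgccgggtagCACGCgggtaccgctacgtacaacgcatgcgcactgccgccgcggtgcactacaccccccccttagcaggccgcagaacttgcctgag
Egln3: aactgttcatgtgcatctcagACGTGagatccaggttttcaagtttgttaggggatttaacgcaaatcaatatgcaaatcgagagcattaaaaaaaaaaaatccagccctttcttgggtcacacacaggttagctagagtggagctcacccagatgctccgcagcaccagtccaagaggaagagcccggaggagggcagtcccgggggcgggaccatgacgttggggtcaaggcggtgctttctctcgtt
Adm: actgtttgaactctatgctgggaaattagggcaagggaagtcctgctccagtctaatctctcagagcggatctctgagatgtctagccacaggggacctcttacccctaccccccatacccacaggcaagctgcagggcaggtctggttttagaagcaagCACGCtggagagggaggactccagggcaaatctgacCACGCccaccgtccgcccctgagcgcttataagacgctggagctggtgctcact
Ldha: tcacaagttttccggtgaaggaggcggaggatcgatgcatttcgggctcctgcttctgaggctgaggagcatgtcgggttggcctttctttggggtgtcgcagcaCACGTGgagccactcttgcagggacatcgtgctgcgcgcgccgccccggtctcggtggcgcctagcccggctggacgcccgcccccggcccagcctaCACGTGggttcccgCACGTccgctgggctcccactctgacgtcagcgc
Over both strands Ldha held 5 matches of ACGTG before this start. Slc2a1 held 1 of ACGTG and 1 of GCGTG, Pgam1 held 1 and 2, and Egln3 held 1 of ACGTG. Pfkl and Adm held 1 and 2 matches of GCGTG and none of ACGTG. A match of these letters is a description of the sequence and shows no binding.

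The comparison of each kind of tumour with gland asked which of these genes differ between tumours that arose with a STAT5 variant and normal tissue. In STAT5ca tumours 6 of the 30 members were higher than in gland (20%, against 6.72% of all 9252 genes tested) and 3 were lower (10%, against 13.2% of all genes). In STAT5Δ750 tumours 7 were higher (23.3%, against 7.61%) and 3 were lower (10%, against 14%). Slc2a1, Pfkl, Aldoc, Pgam1, Pdk1 and Egln3 rose in each comparison, Adm rose in STAT5Δ750 tumours, and Pfkm, Aldoa and Pfkfb3 fell in each. The luminal sum given above had medians of 23170.3 in STAT5ca and 22422.6 in STAT5Δ750 tumours, against 7465.9 in glands. STAT5ca_177 was the lowest array, at 803.3. The part of tissue make-up, of epithelium as of muscle and fat, in the rises and falls was not tested. The share that fell was near that of all genes. The members were chosen with earlier results of these data known, so the share that rose is not independent evidence. The median log2 change was 0.26 over the members and -0.02 over all genes in STAT5ca tumours, and 0.60 and -0.04 in STAT5Δ750 tumours. Both comparisons use the same 3 glands, so their agreement is not independent evidence. The threshold was an adjusted p of 0.05 in limma's test, adjusted over all genes, and changes are differences of log2(signal + 8) with their standard errors.

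**Figure D2:**
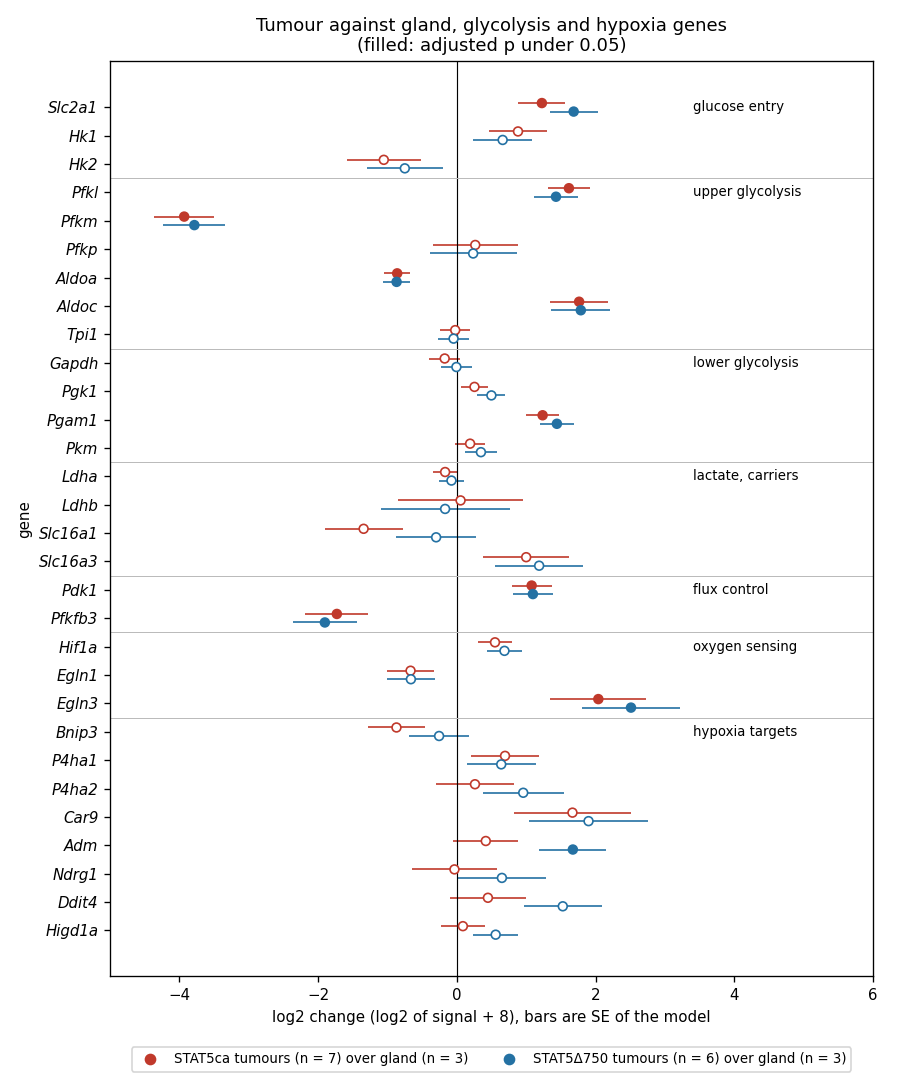
Log2 change and standard error of each of the 30 members, grouped by role, for STAT5ca tumours against gland and STAT5Δ750 tumours against gland. Filled points passed the test. Pfkm lies farthest from 0, at -3.93 and -3.78.

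Glucose entry was measured by Slc2a1, which encodes the glucose carrier GLUT1, and by the hexokinases, which trap glucose in the cell as its phosphate. Slc2a1 had signals of 528 to 1751.9 with a median of 1137.3 in STAT5ca tumours and 914.2 to 2056.9 with a median of 1290.3 in STAT5Δ750 tumours, against 386.4, 390.0 and 429.9 in glands. All 13 tumours lay above all glands, whereas 6.72% of all genes had every STAT5ca array above the glands and 14.4% every STAT5Δ750 array. Slc2a1 rose 2.34-fold in STAT5ca tumours (1.23 ± 0.34 on the log2 scale, adjusted p = 0.0177) and 3.21-fold in STAT5Δ750 tumours (1.68 ± 0.35, adjusted p = 0.00304). The STAT5Δ750 call held in all 28 alternatives run, and the STAT5ca call was lost without each of the 3 glands and with the beta-actin ratio as a covariate, where the adjusted p reached 0.136. Its 2 other probe sets moved the same way.

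Hk2, the hexokinase of muscle and fat and of many tumours, had signals of 201.6 to 1553.4 with a median of 330.9 in STAT5ca tumours and 248.1 to 992.7 with a median of 506.65 in STAT5Δ750 tumours, against 883.0, 937.3 and 608.2 in glands. Its highest tumour signal was that of STAT5ca_177, and the groups overlapped. The change of -1.05 ± 0.53 in STAT5ca tumours did not pass (adjusted p = 0.181), but without STAT5ca_177 it was -1.39 ± 0.39 and passed (adjusted p = 0.0137). The muscle and adipocyte sums given above were lower in all tumours, and their part in the change of Hk2 was not tested. Hk1, the hexokinase found in most cells, had signals of 450.2 to 2047.1 with a median of 771.9 in STAT5ca tumours and 339.3 to 1212.6 with a median of 701.55 in STAT5Δ750 tumours, against 421.3, 387.6 and 453.3 in glands. The groups overlapped, with most tumours above the glands. Hk1 had log2 changes of 0.88 ± 0.42 and 0.66 ± 0.43 in STAT5ca and STAT5Δ750 tumours, with adjusted p-values of 0.154 and 0.290. The other Hk1 probe set, with a lower mean signal, changed more, by 1.79 and 1.92, and was not tested on its own.

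In the upper steps of glycolysis, Pfkl and Aldoc rose while Pfkm and Aldoa, isozymes of the same steps, fell. Phosphofructokinase commits sugar to glycolysis, and Pfkm encodes its muscle form, Pfkl its liver form and Pfkp its platelet form. Pfkm had signals of 135.9 to 472 with a median of 249.2 in STAT5ca tumours and 134.7 to 735.3 with a median of 278.85 in STAT5Δ750 tumours, against 3597.4, 4870.4 and 3588.5 in glands. Every tumour lay far below every gland, and the tumour with the highest signal, STAT5Δ750_178, was also the one with the highest muscle sum of 21066.4. Pfkm was 15.2-fold lower in STAT5ca tumours (-3.93 ± 0.43 on the log2 scale, adjusted p = 1.5e-05) and 13.8-fold lower in STAT5Δ750 tumours (-3.78 ± 0.44, adjusted p = 3.67e-05). The part of muscle RNA in this result was not tested beyond the marker sums given above.

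Pfkl had signals of 1602.3 to 4316.9 with a median of 2766.1 in STAT5ca tumours and 1379.5 to 3265.6 with a median of 2518.2 in STAT5Δ750 tumours, against 710.2, 731.0 and 1250.1 in glands. No tumour fell within the range of the glands. Pfkl rose 3.07-fold in STAT5ca tumours (1.62 ± 0.31, adjusted p = 0.00158) and 2.69-fold in STAT5Δ750 tumours (1.43 ± 0.31, adjusted p = 0.0047). With the beta-actin ratio as a covariate the STAT5ca call stood just past the threshold (adjusted p = 0.0501). Pfkp ranged widely among tumours, from 330 to 1366.4 with a median of 516.6 in STAT5ca tumours and from 113.6 to 1382 with a median of 742.45 in STAT5Δ750 tumours, against 461.4, 553.6 and 428.2 in glands. Its lowest signal of all was on STAT5Δ750_178. Pfkp had log2 changes of 0.27 ± 0.61 and 0.24 ± 0.63 in STAT5ca and STAT5Δ750 tumours and passed in neither comparison. Without STAT5ca_177 the STAT5ca change was 0.09 ± 0.61.

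Aldolase cuts the sugar bisphosphate into its parts, with Aldoa as the form of muscle and of most cells and Aldoc as the form best known from brain. Aldoa had signals of 3224.7 to 4923.6 with a median of 4044.5 in STAT5ca tumours and 3303.4 to 4800.2 with a median of 4006.8 in STAT5Δ750 tumours, against 6716.6, 7626.6 and 7636.6 in glands. It fell by 0.86 ± 0.19 and 0.87 ± 0.19 on the log2 scale in STAT5ca and STAT5Δ750 tumours (adjusted p = 0.00437 and 0.00493), and its tumour and gland arrays did not overlap, as for Pfkm and Pfkfb3. Such a gap below the glands was seen for 13.3% of all genes in STAT5ca and 20.3% in STAT5Δ750 tumours. Its probe sets are of a kind that may bind related transcripts, and the STAT5ca call was lost when each array was scaled to a common median (adjusted p = 0.0944). The muscle sum given above was lower in all tumours, and its part in the fall of Aldoa was not tested. Aldoc had signals of 1127.5 to 5406.4 with a median of 3366.2 in STAT5ca tumours and 2136.3 to 4729.9 with a median of 3271.6 in STAT5Δ750 tumours, against 717.2, 614.8 and 1769.9 in glands. It rose 3.39-fold (1.76 ± 0.41, adjusted p = 0.00695) in STAT5ca tumours and 3.45-fold (1.79 ± 0.42, adjusted p = 0.00748) in STAT5Δ750 tumours. STAT5ca_177 gave the lowest tumour signal and the only one below a gland. Both calls were lost without gland 1 and without gland 4, with adjusted p-values up to 0.0969 in STAT5ca and 0.0719 in STAT5Δ750 tumours, and the STAT5ca call also with the beta-actin ratio as a covariate.

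**Figure D3:**
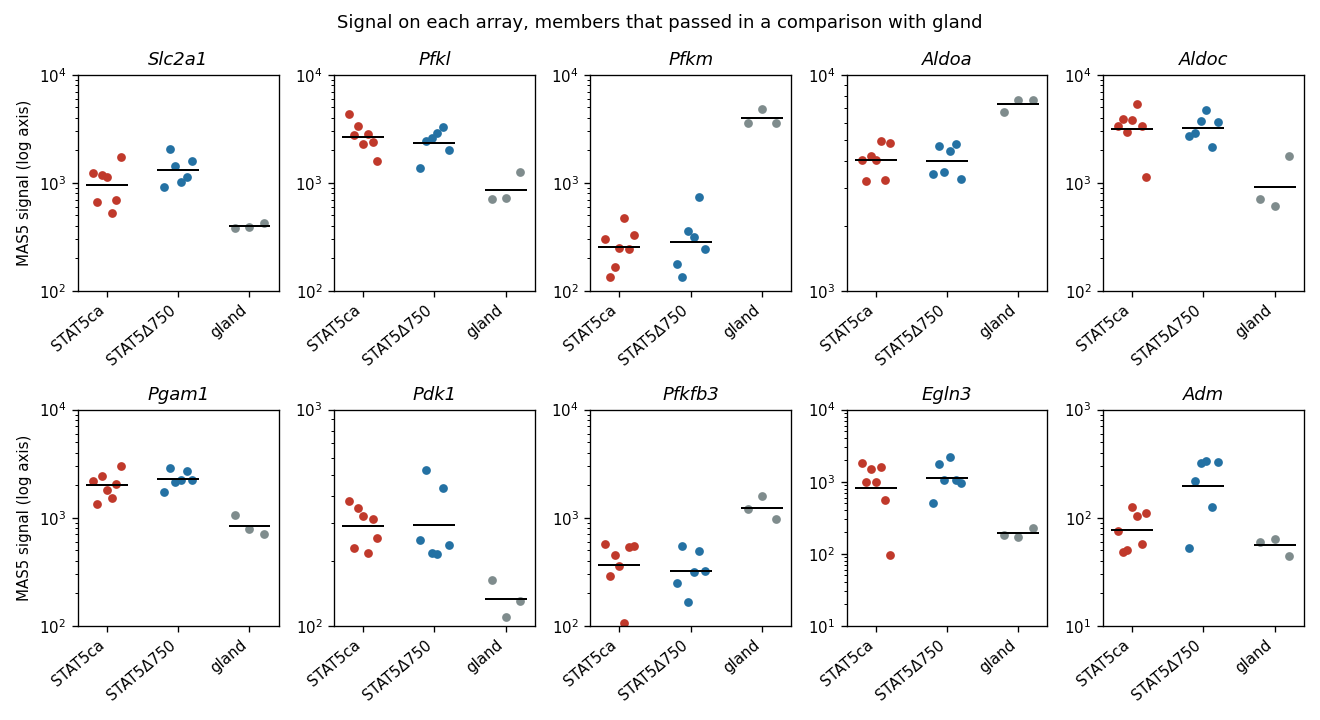
Deposited signal on each array, on log axes, of the 10 members that passed in a comparison with gland, with STAT5ca tumours, STAT5Δ750 tumours and glands from left to right in each panel and a bar at the mean of log2(signal + 8). Pfkm, Aldoa and Pfkfb3 lie below all glands on all 13 tumour arrays, and Slc2a1, Pfkl, Pgam1 and Pdk1 above them.

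Of the 4 measured genes of the lower steps of glycolysis, Pgam1 passed. It encodes the phosphoglycerate mutase of most tissues. Its signals were 1348.5 to 2995.4 with a median of 2058.8 in STAT5ca tumours and 1745.4 to 2878 with a median of 2245.4 in STAT5Δ750 tumours, against 1050.7, 789.3 and 711.7 in glands, without overlap. It rose 2.36-fold in STAT5ca tumours (1.24 ± 0.24, adjusted p = 0.00188) and 2.72-fold in STAT5Δ750 tumours (1.44 ± 0.25, adjusted p = 0.000818), and both calls held in all 28 alternatives. Gapdh, Pgk1 and Pkm encode enzymes of the other lower steps, and Pgk1 and Pkm the ones that make ATP. Tpi1, of the last upper step, is given with them. Pgk1 had signals of 2731.4 to 4795.9 with a median of 4012.5 in STAT5ca tumours and 3575.5 to 5729.6 with a median of 4409 in STAT5Δ750 tumours, against 3348.2, 3323.4 and 3090.8 in glands. All 6 STAT5Δ750 tumours lay above the glands, and the changes of 0.25 ± 0.20 and 0.50 ± 0.20 did not pass (adjusted p = 0.395 and 0.0900). The 2 other Pgk1 probe sets changed by 0.17 and 0.99 in STAT5ca tumours and by 0.58 and 1.56 in STAT5Δ750 tumours. They were not tested on their own. Tpi1, Pkm and Gapdh overlapped the glands. Tpi1 had signals of 3593.9 to 6161.4 in STAT5ca tumours and 3550.1 to 5807.9 in STAT5Δ750 tumours, against 4134.8, 5309.2 and 4355.3 in glands, with changes of -0.02 and -0.05 in STAT5ca and STAT5Δ750 tumours, and -0.10 in STAT5ca tumours without STAT5ca_177. Pkm had signals of 1965.3 to 3930.6 and 2361.5 to 4057.1 in STAT5ca and STAT5Δ750 tumours, against 2364.7, 2831.9 and 2650.0 in glands. Its changes were 0.19 (0.13 without STAT5ca_177) and 0.35, and those of Gapdh, read from an Affymetrix control probe set, were -0.17 ± 0.22 and -0.01 ± 0.23 in STAT5ca and STAT5Δ750 tumours. None of these passed.

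The genes that make and carry lactate did not pass in either comparison. Ldha, whose lactate dehydrogenase turns pyruvate to lactate, had signals of 4169.4 to 5414.2 with a median of 4527.5 in STAT5ca tumours and 3954.9 to 6308.5 with a median of 4597.1 in STAT5Δ750 tumours, against 4998.2, 5675.2 and 4977.5 in glands. The groups overlapped. Ldhb, the form of heart and many epithelia, ranged from 63.2 to 3550.1 in STAT5ca tumours and from 518 to 2281.3 in STAT5Δ750 tumours, against 1352.8, 1515.4 and 1095.5 in glands, and the lowest signal was that of STAT5ca_177. Ldha changed by -0.17 ± 0.17 and -0.08 ± 0.18 and Ldhb by 0.05 ± 0.91 and -0.17 ± 0.93 in STAT5ca and STAT5Δ750 tumours. Without STAT5ca_177 the STAT5ca change of Ldhb was 0.76 ± 0.44 and did not pass (adjusted p = 0.203). Slc16a1 and Slc16a3 encode the lactate carriers MCT1 and MCT4. Slc16a1 had signals of 172.7 to 1115.1 with a median of 497.4 in STAT5ca tumours and 369.9 to 3084.5 with a median of 995.1 in STAT5Δ750 tumours, against 1430.1, 1088.0 and 1257.9 in glands. It had log2 changes of -1.34 ± 0.56 (adjusted p = 0.107) and -0.30 ± 0.58 (adjusted p = 0.747) in STAT5ca and STAT5Δ750 tumours. Slc16a3 was dim, at 29.4 to 491.6 in STAT5ca tumours and 55.4 to 183.5 in STAT5Δ750 tumours, against 35.6, 52.9 and 43.8 in glands, with the highest signal on STAT5ca_177. Its changes of 1.0 ± 0.62 and 1.19 ± 0.64 did not pass, and without STAT5ca_177 the STAT5ca change was 0.62 ± 0.47.

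The genes that set the flux moved apart. Pdk1 encodes a kinase that holds pyruvate back from the mitochondria by blocking pyruvate dehydrogenase. Its signals were 217.7 to 377.3 with a median of 313.4 in STAT5ca tumours and 214.2 to 524.9 with a median of 242.95 in STAT5Δ750 tumours, against 163.7, 109.9 and 130 in glands. All 13 tumours were above all glands. Pdk1 rose 2.11-fold in STAT5ca tumours (1.08 ± 0.29, adjusted p = 0.0144) and 2.14-fold in STAT5Δ750 tumours (1.10 ± 0.29, adjusted p = 0.0151), and both calls were lost without gland 4, without gland 6 and with the beta-actin ratio as a covariate (adjusted p up to 0.146 and 0.101). Pfkfb3 makes the sugar phosphate that activates phosphofructokinase. Its signals were 106.2 to 566.2 with a median of 454.6 in STAT5ca tumours and 167.3 to 545.3 with a median of 316.65 in STAT5Δ750 tumours, against 1197.6, 1590.7 and 970.4 in glands, again without overlap. It fell by 1.73 ± 0.45 on the log2 scale in STAT5ca tumours (adjusted p = 0.0136) and by 1.90 ± 0.47 in STAT5Δ750 tumours (adjusted p = 0.00897). Both calls were lost when its 2 probe sets were averaged and without gland 4, and the STAT5ca call also without gland 1 and with the beta-actin ratio as a covariate (adjusted p up to 0.0951 and 0.0685). Pfkfb3 is also expressed in fat, and the adipocyte sum given above was lower in all tumours. Its part in the result was not tested.

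The oxygen sensing genes were read next. Egln3 encodes a HIF prolyl hydroxylase that is itself a HIF target. Its signals were 96.4 to 1817.2 with a median of 999 in STAT5ca tumours and 501.4 to 2165.5 with a median of 1061.8 in STAT5Δ750 tumours, against 180.9, 172.9 and 224.8 in glands. STAT5ca_177 was the only tumour below the glands, and the other 12 were above them. Egln3 rose 4.11-fold in STAT5ca tumours (2.04 ± 0.69, adjusted p = 0.0481) and 5.70-fold in STAT5Δ750 tumours (2.51 ± 0.71, adjusted p = 0.0195). The STAT5ca call was lost in 20 of 28 alternatives, with adjusted p-values up to 0.532, and without STAT5ca_177 the change was 2.54 with an adjusted p of 0.000375. The STAT5Δ750 call was lost without each of the 3 glands and with the beta-actin ratio as a covariate (adjusted p up to 0.0967). Hif1a, the oxygen-regulated subunit of HIF, is controlled mainly at the protein level. Its signals were 841.1 to 2037.1 with a median of 1422.9 in STAT5ca tumours and 1266 to 2124 with a median of 1409.5 in STAT5Δ750 tumours, against 953.4, 912.0 and 958.9 in glands. The changes of 0.55 ± 0.25 and 0.69 ± 0.26 did not pass (adjusted p = 0.139 and 0.0688), and the STAT5Δ750 change passed without STAT5ca_177 (adjusted p = 0.0395). Without STAT5ca_123 both passed, at 0.67 ± 0.22 in STAT5ca tumours (adjusted p = 0.0498) and with an unmoved change in STAT5Δ750 tumours (adjusted p = 0.0397). Egln1, the main HIF hydroxylase, had signals of 361.3 to 704.2 in STAT5ca tumours and 288.4 to 1027.7 in STAT5Δ750 tumours, against 780.4, 925.8 and 628.0 in glands. It had changes of -0.67 ± 0.33 and -0.66 ± 0.34 that did not pass, and without STAT5Δ750_92 the STAT5Δ750 change was -0.88 ± 0.29 and passed (adjusted p = 0.0464). The other Egln1 probe set changed the other way, by 0.36 and 0.53, and was not tested on its own.

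Of the 8 hypoxia targets none passed in STAT5ca tumours, where 6.72% of all genes were higher and 13.2% lower. In STAT5Δ750 tumours 1 of the 8, Adm, was higher, where 7.61% of all genes were. A list of 8 genes is too short to set either count apart from these shares. Adm encodes adrenomedullin, a peptide that widens blood vessels. Its signals were 48 to 125.8 with a median of 75.9 in STAT5ca tumours and 52.4 to 336.5 with a median of 268.55 in STAT5Δ750 tumours, against 59.9, 63.8 and 44.7 in glands. 5 of 6 STAT5Δ750 tumours lay above all glands, with STAT5Δ750_254 as the exception. Adm rose 3.19-fold (1.67 ± 0.48, adjusted p = 0.0223), a call lost without each of the 3 glands (adjusted p up to 0.0886). In STAT5ca tumours its change was 0.42 ± 0.47 (adjusted p = 0.574).

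Car9, a carbonic anhydrase at the cell surface and a classic hypoxia marker, had signals of 10 to 237.6 with a median of 224.1 in STAT5ca tumours and 27.6 to 647.7 with a median of 132.7 in STAT5Δ750 tumours, against 29.5, 35.3 and 23.5 in glands. STAT5ca_124, at 10, lay below all glands, and other tumours lay far above them. The changes of 1.67 ± 0.84 and 1.90 ± 0.86 did not pass (adjusted p = 0.181 and 0.129), and without STAT5ca_124 the STAT5ca change was 2.12 ± 0.71 and passed (adjusted p = 0.0484). Ddit4, an inhibitor of mTORC1 signalling, had signals of 221.3 to 1493.8 with a median of 927.9 in STAT5ca tumours and 1080.2 to 2434.6 with a median of 1234.7 in STAT5Δ750 tumours, against 338.0, 495.1 and 678.4 in glands. All 6 STAT5Δ750 tumours lay above the glands. The STAT5Δ750 change of 1.53 ± 0.56 did not pass (adjusted p = 0.0634), but passed without STAT5ca_177 (adjusted p = 0.0389) and without STAT5ca_169 (adjusted p = 0.0366), arrays that enter it only through the shared spread. Bnip3, a protein of mitochondrial turnover, had signals of 342.7 to 1664.1 with a median of 1003.5 in STAT5ca tumours and 799.8 to 2181.8 with a median of 1453.8 in STAT5Δ750 tumours, against 1632.0, 1856.5 and 1474.9 in glands. Its changes of -0.87 ± 0.42 and -0.26 ± 0.43 did not pass.

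P4ha1 and P4ha2 encode subunits of the collagen prolyl hydroxylases. P4ha1 had signals of 155.7 to 921.3 with a median of 179.5 in STAT5ca tumours and 129.5 to 429 with a median of 228.55 in STAT5Δ750 tumours, against 144.2, 154.9 and 149.8 in glands. All 7 STAT5ca tumours lay above the glands and STAT5ca_177 had the highest signal. P4ha2 had signals of 26.4 to 303.6 with a median of 159.5 in STAT5ca tumours and 110.7 to 405.2 with a median of 238.25 in STAT5Δ750 tumours, against 100.4, 133.1 and 108.5 in glands. Ndrg1, a stress-responsive gene, had signals of 299.9 to 3016 in STAT5ca tumours and 1416.8 to 5190.2 in STAT5Δ750 tumours, against 1117.5, 863.7 and 3166.6 in glands, so that the glands themselves differed. Higd1a, a mitochondrial protein, had signals of 587.1 to 1563 in STAT5ca tumours and 833.7 to 2148.2 in STAT5Δ750 tumours, against 953.5, 1059.8 and 831.0 in glands. On the probe sets used, these 4 genes had changes between -0.03 and 0.96, and none passed. The 4 other probe sets of Ndrg1 changed by -0.07 to 0.53 in STAT5ca and by 0.70 to 1.72 in STAT5Δ750 tumours. The other one of P4ha1 changed by 0.59 and 1.30, and the 2 others of Higd1a by -0.06 to 0.18 and by 0.28 to 0.31. These were not tested on their own. Without STAT5ca_177 the STAT5ca change of P4ha1 was 0.38 ± 0.35, against 0.70 with it, and that of Ndrg1 was 0.04, against -0.03. The median change of the 8 targets was 0.34 in STAT5ca and 0.80 in STAT5Δ750 tumours.

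The isozymes were also compared within each array, as differences of log2 values whose level has no meaning between probe sets and whose shift between groups has. Pfkl minus Pfkm averaged 3.36 ± 0.79 in the 7 STAT5ca tumours and 3.02 ± 0.63 in the 6 STAT5Δ750 tumours, against -2.19 ± 0.62 in the 3 glands (means ± SD). The shift was 5.55 in STAT5ca tumours (exact two-sided permutation test, p = 0.0167, adjusted p = 0.0595 over 15 tests) and 5.21 in STAT5Δ750 tumours (exact p = 0.0238, adjusted p = 0.0595). These are the smallest p-values that 7 against 3 and 6 against 3 arrays can give, and no shift passed after adjustment. Aldoa minus Aldoc averaged 0.35 ± 0.81 in STAT5ca tumours (SD, n = 7) and 0.32 ± 0.52 in STAT5Δ750 tumours (SD, n = 6), against 2.98 ± 0.78 in glands (SD, n = 3), a shift of -2.62 and -2.66 with an exact adjusted p of 0.0595 each. Pfkp minus Pfkm averaged 1.16 ± 0.60 in STAT5ca and 0.98 ± 1.83 in STAT5Δ750 tumours, against -3.03 ± 0.09 in glands (means ± SD). It shifted by 4.20 and 4.02 (exact adjusted p = 0.0595 each). Most of this shift lay in Pfkm, which changed by -3.93 and -3.78 against gland, where Pfkp changed by 0.27 and 0.24. The part of muscle RNA in the shifts of pairs with Pfkm, Aldoa or Hk2, and of fat in that with Hk2, was not tested. Hk2 minus Hk1 shifted by -1.93 and -1.41 (exact adjusted p = 0.0714 and 0.134), and Ldha minus Ldhb by -0.22 and 0.09 (exact p = 0.65 and 0.738). Without STAT5ca_177 the STAT5ca shifts were 5.73 for Pfkl minus Pfkm, 4.08 for Pfkp minus Pfkm, -2.91 for Aldoa minus Aldoc and -2.27 for Hk2 minus Hk1. Their exact adjusted p was then 0.0446, but it rests on p-values at the floor of the design and on how many of the 15 tests reach it. The difference of Ldha minus Ldhb between STAT5ca and STAT5Δ750 tumours was -0.31 with all arrays and did not pass. Without STAT5ca_177 it was -1.02, with the same exact adjusted p of 0.0446. That value is shared with the tests at their floor through the adjustment, and nothing is read from it. The plot of isozyme differences shows no overlap of tumours and glands for the phosphofructokinases. Pfkp minus Pfkm was nonetheless -2.61 on STAT5Δ750_178, close to the glands at -3.12 to -2.94.

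**Figure D4:**
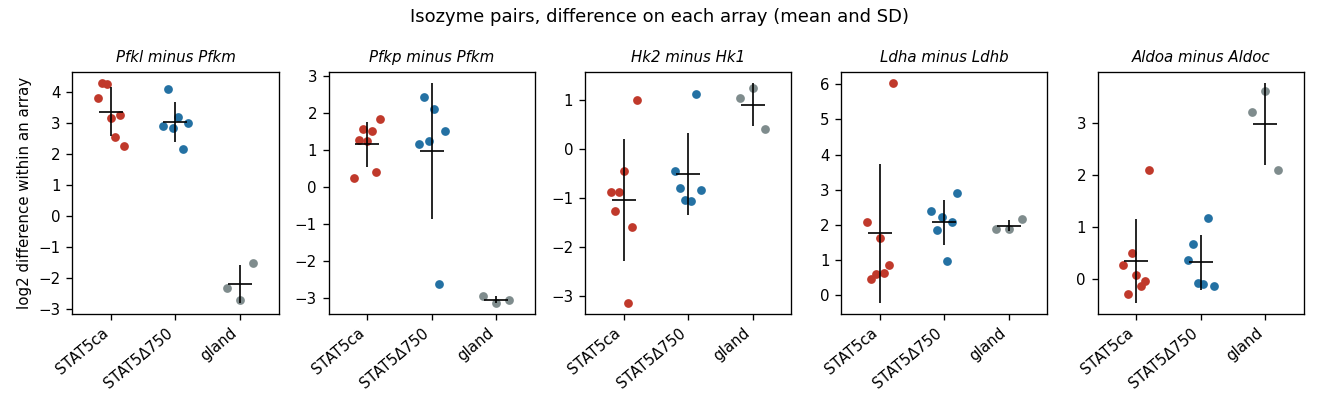
Difference of log2(signal + 8) between isozymes of the same step on each array, with lines for the mean and SD and STAT5ca tumours, STAT5Δ750 tumours and glands from left to right. All 13 tumours have a higher value of Pfkl minus Pfkm than the 3 glands.

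STAT5ca and STAT5Δ750 tumours were compared directly, to ask whether the variants differ. No gene passed limma's test at an adjusted p of 0.05 among 9252 tested (0% called), in any of the 28 alternatives, while 525 genes (5.67%) had an unadjusted p under 0.05. 3 of the 30 members did: Slc16a1, Adm and Ddit4, all with lower means in STAT5ca tumours. Adm had a change of -1.26 ± 0.38 (adjusted p = 0.795), Ddit4 of -1.08 ± 0.44 and Slc16a1 of -1.05 ± 0.45 (adjusted p = 0.848 each). 5 of 6 STAT5Δ750 tumours exceeded the highest STAT5ca signal for Adm, of 125.8, and the groups overlapped through STAT5Δ750_254. The median change was -0.16 over the members and -0.00 over all genes. With 7 and 6 arrays a missed threshold does not show that the tumours are alike.

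No tumour was the highest, or the lowest, of its group for all of the 12 hypoxia genes ranked. STAT5Δ750_92 had the highest signal of its group for 6, among them Bnip3, Ddit4 and Slc2a1, and lay above the group median for 10. STAT5Δ750_254 had the lowest for 5. In STAT5ca tumours STAT5ca_123 had the highest signal for 5, among them Egln3 and Bnip3, and STAT5ca_169 the lowest for 7. STAT5ca_169 nonetheless had the highest Car9 of its group, so that the markers did not rank the tumours alike.

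**Figure D5:**
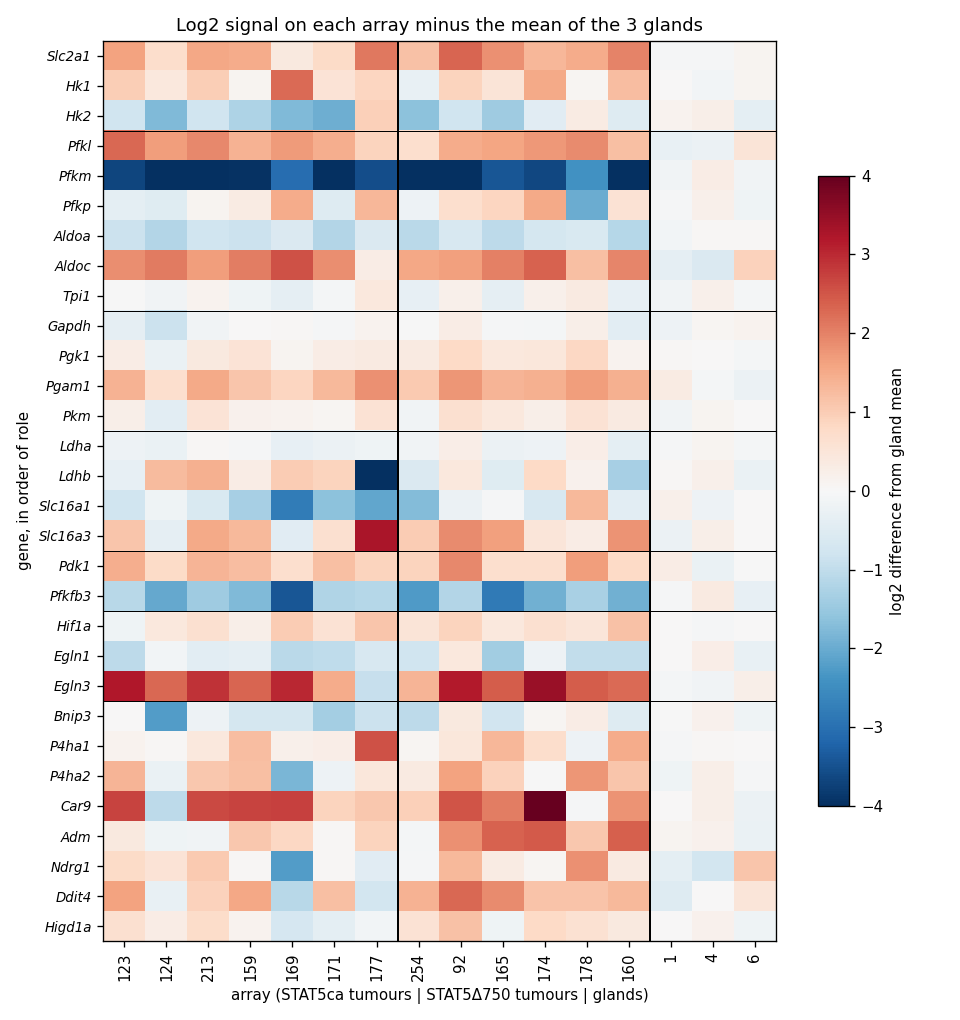
Each member's log2(signal + 8) on each array as the difference from its mean over the 3 glands, with colours that end at 4 in either direction, and with members by role down the page and STAT5ca tumours, STAT5Δ750 tumours and glands from left to right. Pfkm, Aldoa and Pfkfb3 are below the gland mean on all 13 tumour arrays, and STAT5ca_177 differs from the other STAT5ca arrays in Ldhb and Egln3.

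Other genes of the pathway were read from 2 longer lists, also chosen with earlier results of these data known. Of 37 tested genes of related carbohydrate metabolism 2 rose (5.41%, against 6.72% of all genes in STAT5ca and 7.61% in STAT5Δ750 tumours) and 18 fell (48.6%, against 13.2% and 14%) in each comparison with gland, with median changes of -1.18 in STAT5ca and -1.01 in STAT5Δ750 tumours. Pck2 and Pgls rose in STAT5ca tumours and Pck2 and Pdk3 in STAT5Δ750 tumours, by 0.62 to 1.17 on the log2 scale. Slc2a4, the insulin-driven glucose carrier GLUT4 of muscle and fat, had signals of 21.3 to 59.5 in STAT5ca tumours and 29.3 to 196.5 in STAT5Δ750 tumours, against 785.6 to 1094.7 in glands, a change of -4.32 ± 0.41 (adjusted p = 3.84e-06) and -3.88 ± 0.42 (adjusted p = 1.85e-05). Pygm, Eno3 and Pgam2, the glycogen phosphorylase, enolase and mutase of muscle, and Pck1, a gluconeogenic enzyme of liver and fat, changed by -4.73 to -6.72. The marker sums of muscle and fat given above were lower in the same tumours. Pygm and Eno3 are themselves in the muscle sum and Pck1 in the adipocyte sum, and the part of muscle and fat in this result was not tested.

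Of 39 further hypoxia genes tested, STAT5ca tumours had 5 that rose (12.8%, against 6.72% of all genes) and 3 that fell (7.69%, against 13.2%). STAT5Δ750 tumours had 9 that rose (23.1%, against 7.61%) and 3 that fell (7.69%, against 14%). The medians were 0.47 and 0.62. Because of how the list was chosen, these shares are not independent evidence beside those of the members. Mif, a cytokine, had signals of 3277.7 to 5020 in STAT5ca tumours and 3048.2 to 6082 in STAT5Δ750 tumours, against 991.3 to 1165.5 in glands, and rose by 1.89 ± 0.21 (adjusted p = 1.60e-05) and 1.98 ± 0.22 (adjusted p = 1.95e-05). Anxa2, Ier3, Sap30 and Pgf also rose in both, and Jmjd6, Ero1a, Hif3a and Fam162a in STAT5Δ750 tumours. Pgf, a vascular growth factor, rose by 2.22 ± 0.62 in STAT5ca and 2.71 ± 0.64 in STAT5Δ750 tumours. Gys1, Stc2 and Angptl4, the last a lipase inhibitor made by fat, fell in both. Gys1 is in both longer lists and was counted in each.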

How the data were processed

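Signals of 16 arrays were analysed as deposited. They are linear MAS5 intensity values, deposited for each probe set, per the submitters' processing notes, which give no version. The authors' signals had the same trimmed mean on each array (250.1, without the lowest and highest 2 percent), and this deposited scaling was kept. Medians ran from 57.3 to 90.7. Of 22690 probe sets 20393 carried 1 gene symbol, 691 several and 1606 none here. The probe set with the highest mean was used per gene. Genes with a signal above 35.4, the 40th percentile, on at least 3 arrays were tested on log2(signal + 8) by limma 3.58.1 (R 4.3.3). A single model held the 3 groups, with Benjamini-Hochberg adjustment over 9252 genes. Isozyme differences were tested with exact permutation tests in scipy 1.17.1, adjusted over 15 tests. Named genes are the members, and from each longer list the 5 with the smallest adjusted p per comparison with gland. Where at most 5 genes of a list passed in a direction they are all named, and others that passed were added after their values were seen. The members and lists were chosen with earlier results of these data known. No arrays share a replicate number, and no batch was recorded in the labels. The procedure was tested on simulated data. The number of arrays limits the precision. The alternatives were other scalings, offsets, filters and probe set rules, trend and array weights, control-ratio covariates, the 2 groups alone, and leaving out each array, 28 in all.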

Additional observations from a re-analysis of the deposited data

Results flagged for a closer look

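In 60 groups of tumour signals examined, 1 per member and kind of tumour, 6 had an array whose gap to the nearest other was large against the whole range of the group. Chance flags about 1 in 20 groups. Of these, 4 lay on STAT5ca_177 and the other 2 on STAT5ca_169. Hk2 had a signal of 1553.4 on STAT5ca_177, against 201.6 to 453.6 on the other 6 STAT5ca arrays. Ldhb had 63.2 there, against 1051.6 to 3550.1. Aldoc had 1127.5, against 2965.8 to 5406.4, and Egln3 96.4, against 548.6 to 1817.2. The same array had the lowest luminal sum, 803.3, and the highest macrophage sum, 27799.3, and their part in these values was not tested. Hk1 had 2047.1 on STAT5ca_169, against 450.2 to 841.5, and Pfkfb3 106.2, against 291 to 566.2.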

How the results depend on the processing

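No member called in the comparisons with gland changed direction under the 28 alternatives. With array weights, genes called were 4818 in STAT5ca and 4463 in STAT5Δ750 tumours against gland, with 11 and 13 members higher and 7 lower in STAT5ca tumours. With the beta-actin ratio as a covariate, 921 genes and 1 higher member, Pgam1, were called in STAT5ca tumours. When single arrays were left out, genes called ranged from 784 to 2854 in STAT5ca and 783 to 2740 in STAT5Δ750 tumours, and higher members from 2 to 6 and 3 to 9, with the low ends without gland 4. Without gland 1 the genes called were 897 and 916 in STAT5ca and STAT5Δ750 tumours, and without gland 6 they were 1162 and 1209. Without STAT5ca_177, 2854 genes were called in STAT5ca tumours, and Hk2 in STAT5ca and Hif1a and Ddit4 in STAT5Δ750 tumours were added to the members called. Hif1a was also added in both without STAT5ca_123, Car9 in STAT5ca tumours without STAT5ca_124, Ddit4 in STAT5Δ750 tumours without STAT5ca_169 and Egln1 in STAT5Δ750 tumours without STAT5Δ750_92.

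Of the genes called, 622 were higher and 1222 lower in STAT5ca tumours with the deposited scaling, and 704 and 1296 in STAT5Δ750 tumours. Scaling to a common median, which moved the median of all genes to 0.26 in STAT5ca and 0.08 in STAT5Δ750 tumours, gave 1281 higher and 849 lower, and 856 and 940. Quantile normalization gave 871 and 1107, and 893 and 1246.

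Isozyme differences with single arrays left out ranged as follows. Against gland in STAT5ca and then STAT5Δ750 tumours, Pfkl minus Pfkm ran from 5.28 to 5.88 and 4.95 to 5.55, Pfkp minus Pfkm from 4.08 to 4.35 and 3.73 to 4.74, Aldoa minus Aldoc from -3.06 to -2.30 and -3.09 to -2.34, and Hk2 minus Hk1 from -2.27 to -1.58 in STAT5ca tumours. Ldha minus Ldhb ran from -0.93 to -0.0060 in STAT5ca tumours and from -0.0759, without STAT5Δ750_160, to 0.31 in STAT5Δ750 tumours. Between STAT5ca and STAT5Δ750 tumours, Pfkp minus Pfkm ran from -0.54 to 0.47, Aldoa minus Aldoc from -0.26 to 0.20 and Ldha minus Ldhb from -1.02 to -0.10. Averaging probe sets per gene turned the first 2 of these, to -0.0883 and -0.0407. The cause was not tested. Without STAT5ca_177 the exact adjusted p of 8 isozyme differences was 0.0446, although those of STAT5Δ750 tumours against gland hold the same arrays and values with and without it. P-values at the floor of the design pass or miss there through the adjustment over 15 tests. Ldha minus Ldhb between the tumours is not a test against gland, but shares that adjusted p through the same adjustment. Nothing is read from these passes. No paired analysis was possible because no replicate number is shared between the groups. Dim probe sets, such as those of Slc16a3, Car9 and Adm, the last of which was called in STAT5Δ750 tumours, limit what their signals can show.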

Other observations

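Where members had several probe sets, these could differ. The 2 probe sets of Egln1 had opposite signs. The one with the higher mean changed by -0.67 in STAT5ca and -0.66 in STAT5Δ750 tumours against gland, and the other by 0.36 and 0.53. The summed signal of 5 cell division genes was 1049.3 to 6688 in STAT5ca tumours and 3558.2 to 5823 in STAT5Δ750 tumours, against 728.6 to 1130.1 in glands. The 1049.3 was that of STAT5ca_177, and the next lowest STAT5ca sum was 3396.1. The summed signal of 6 endothelial genes was 341.1 to 1259 in STAT5ca tumours and 529.1 to 829.7 in STAT5Δ750 tumours, against 2068.1 to 2606 in glands.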
